A study of Mus musculus with 6 samples.

Results

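Blood vessels are recognised in an RNA profile by genes that their cells use and few other cells do. The 34 genes described here mark vascular endothelium, lymphatic endothelium and pericytes. They were taken by symbol from a named list, and all 34 were found among the 17606 genes of the deposited expression table. By role they are 5 endothelial junction and adhesion genes, 10 endothelial receptors and signalling genes, 6 endothelial secreted and surface proteins, 3 endothelial transcription factors, 3 lymphatic genes, 2 angiopoietin ligands and 5 pericyte genes.

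RNA was sequenced in bulk from keratocytes, the resident cells of the corneal stroma, sorted by FACS from mouse corneas. There were 3 control libraries and 3 libraries from Prrx1-CreERT;Ptch1 f/f mice (Ptch1-ablated), in which tamoxifen removes the Hedgehog receptor Ptch1 from cells that use the Prrx1 promoter. Mice were 10 weeks old and both groups received 3 doses of tamoxifen (TAM), with RNA taken 1 month later. The control genotype is given in the labels only as ctrl, Prrx1-CreERT also recombines in corneal endothelial cells, the markers used for sorting are not given in the sources used here, and nothing in the labels says whether a library came from 1 animal or several, so that p-values measure the spread between these libraries.

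A capillary is a tube of endothelial cells held together by VE-cadherin junctions and wrapped by pericytes. Angiopoietins made by cells around the vessel act on the endothelial receptor Tek, with Tie1 beside it, and the phosphatase Ptprb opposes that signal, while SoxF and ETS transcription factors keep the endothelial programme on. The healthy central cornea has no vessels, and its blood and lymphatic vessels end at the limbus, the ring where cornea meets conjunctiva.

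Libraries held 20258439 to 24788063 counts, so 3 counts, the limit that a count of 0 allows, correspond to 0.121 to 0.148 counts per 1000000, for counting error only. Control replicate 1 and Ptch1-ablated replicate 2 lay apart from the other libraries on the second principal component (22.2% of the variance), and calls are given without them where they changed. The count of Ptch1 was 104 to 369 in controls and 4348 to 6230 in Ptch1-ablated libraries, but counts are per gene and do not separate the floxed exons, so this does not check the deletion. The Hedgehog target Gli1 was at 1 to 36 counts in controls and at 3022 to 3098 in Ptch1-ablated libraries. The 6 keratocyte markers together reached 61240 to 64890 TPM (transcripts per 1000000, a level per length) in controls and 42480 to 47010 TPM in Ptch1-ablated libraries, so both groups carried the labelled cell type.

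Vascular genes were measurable in the sorted cells of both groups, and most stood higher after Ptch1 ablation. Of the 34 genes, 15 were called higher in the Ptch1-ablated libraries, which required 2-fold or more and an adjusted p no larger than 0.05 in edgeR, and 0 were called lower. Among all 13888 genes tested, 3.36% were called higher, 2.13% lower and 5.49% in either direction. Another 3 genes passed the adjusted p below 2-fold, which makes 18 of 34 against 4.68% of all genes. At an unadjusted p under 0.05, 22 genes were higher and 0 lower by edgeR, and 24 were higher and 0 lower by DESeq2. The median log2 fold change, Ptch1-ablated over control, was 1.09 over the 34 genes and 0.0046 over all genes tested. In CPM (counts scaled by TMM to 1000000 a library), all Ptch1-ablated libraries lay above all controls for 23 genes, where 14.1% of all genes did so, and below all controls for 2 genes, where 13.3% did so.

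**Figure D1:**
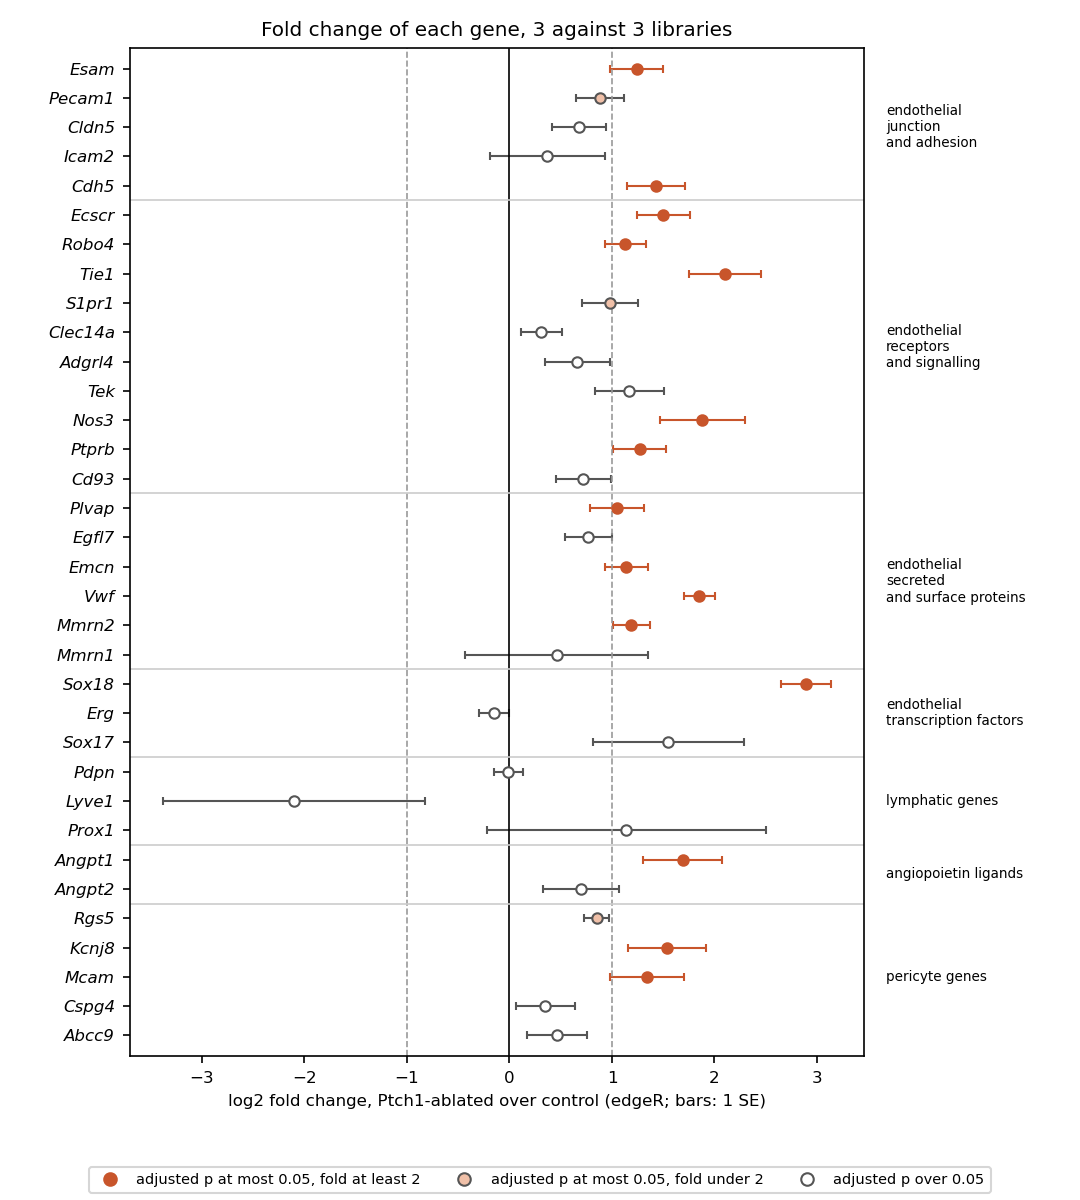
Log2 fold change of each of the 34 genes (x axis, Ptch1-ablated over control, edgeR on 3 against 3 libraries) with bars of 1 SE, grouped by role and marked by whether the gene passed the adjusted p and the 2-fold line (dashed). Sox18 lies farthest right at 2.89, 15 genes are filled as called higher, and the low-count genes Lyve1 and Prox1 have the widest bars.

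The lift was not carried by a single library. Ptch1-ablated replicate 1 held the highest value of the 6 libraries for 14 genes, replicate 3 for 10 and replicate 2 for 6. Control replicate 3 held the lowest value for 15 genes, control replicate 1 for 11 and control replicate 2 for 6. Without any 1 library in turn, 10 to 16 genes were called higher, the lowest number without Ptch1-ablated replicate 1, and without both libraries that lay apart 16 were. Called under each of these fits were 9 genes: Cdh5, Tie1, Ptprb, Robo4, Ecscr, Vwf, Mmrn2, Emcn and Sox18. In bulk RNA, more cells of a type and more RNA per cell cannot be told apart.

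**Figure D2:**
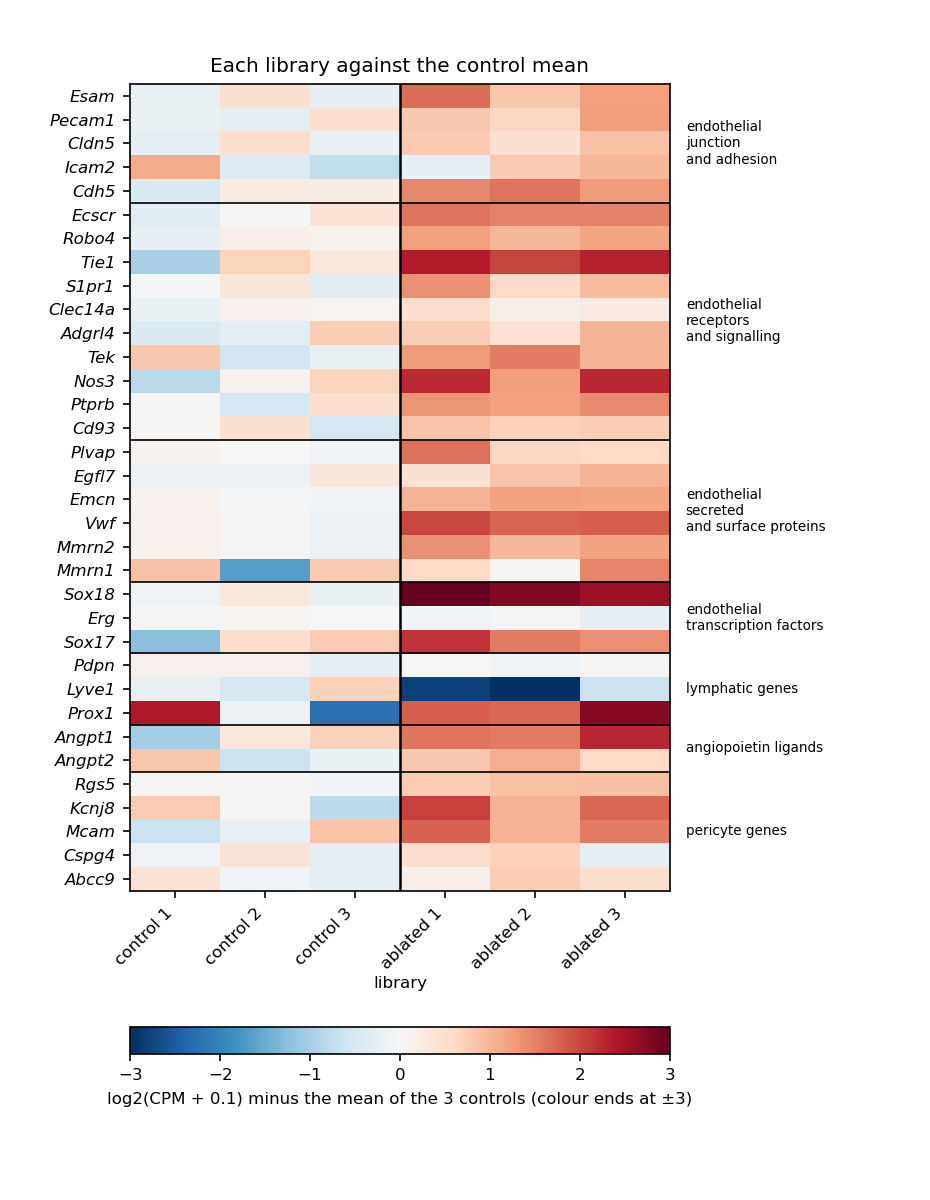
Each of the 34 genes (rows, by role) in each of the 6 libraries (columns), as log2(CPM + 0.1) minus the mean of the 3 controls, with colours ending at 3 in either direction. Endothelial rows are red across the 3 Ptch1-ablated columns apart from Erg and single squares of Icam2 and Mmrn1, while Pdpn stays pale and Lyve1 is blue.

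Levels differed widely among the genes. By TPM, Pdpn led in both groups at 438 ± 58.1 in controls and 504 ± 4.02 in Ptch1-ablated libraries (mean ± SD, n = 3 each), and Rgs5 followed at 121 ± 4.30 and 254 ± 19.6. Erg was the third most abundant in controls at 91.9 ± 4.84 TPM and the eighth in Ptch1-ablated libraries at 96.4 ± 11.2. Sox18 moved from place 12, at 19.8 ± 3.77 TPM, to place 4, at 170 ± 41.7. The lowest levels in controls were those of Lyve1, Sox17, Mmrn1 and Prox1, all under 3 TPM in the mean of either group except Sox17 at 4.13 ± 1.05 in the Ptch1-ablated libraries. The 24 endothelial genes summed to 569 to 637 TPM in controls and to 1393 to 1658 TPM in Ptch1-ablated libraries, a ratio of means of 2.43. TPM values are not scaled by TMM, and by limma on log2(TPM + 1) the median log2 fold change of all genes was itself 0.19.

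**Figure D3:**
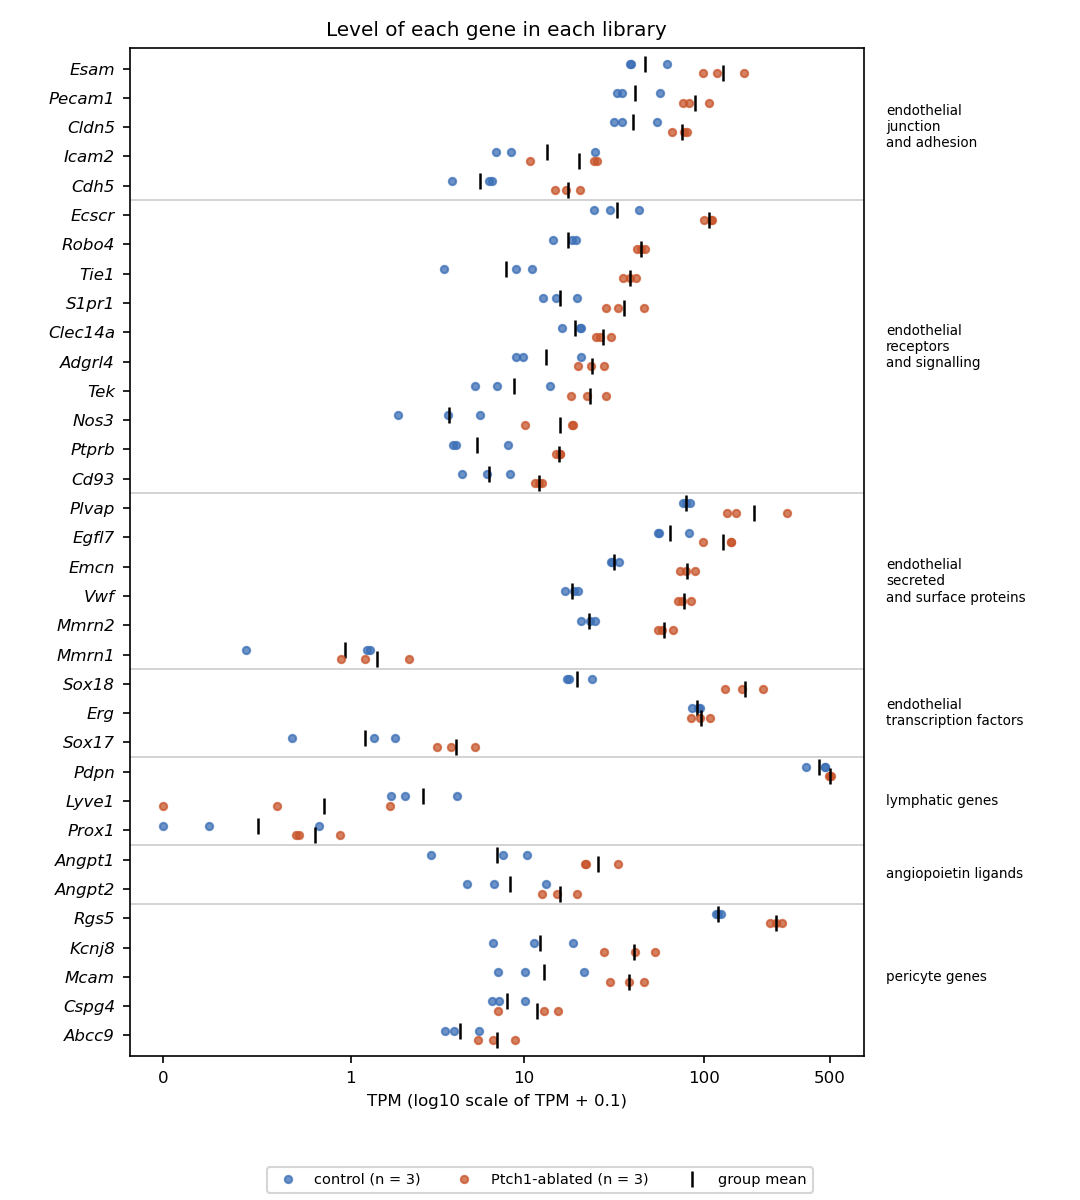
TPM of each gene (x axis, log10 scale of TPM + 0.1) in each library, with points for the 3 control and the 3 Ptch1-ablated libraries and a bar at each group mean. Most endothelial rows show both groups apart, with Pdpn, Rgs5 and Erg among the most abundant genes in controls and Prox1, Mmrn1 and Sox17 at the low end.

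The junction genes rose in part. Cdh5, the VE-cadherin that seals endothelial junctions, was at 7.48, 12.1 and 12.1 CPM in control replicates 1 to 3 and at 28.4, 31.5 and 25.3 CPM in Ptch1-ablated replicates 1 to 3. Its groups did not overlap, and it rose 2.69-fold (log2 1.43, SE 0.28, adjusted p = 0.0079). Esam, an adhesion molecule of endothelial tight junctions, was at 32.1, 51.5 and 31.2 CPM in controls and at 119, 65.6 and 87.2 CPM after ablation. All Ptch1-ablated values lay above the controls and Esam rose 2.37-fold (log2 1.24, SE 0.26, adjusted p = 0.010), but without Ptch1-ablated replicate 1, its highest library, the adjusted p was 0.058.

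Pecam1, the platelet and endothelial adhesion molecule CD31, was at 54.1, 51.4 and 86.0 CPM in controls and at 110, 94.8 and 148 CPM after ablation. These groups did not overlap, and its log2 fold change of 0.88 (SE 0.24) passed the adjusted p at 0.038 but stayed below 2-fold. It was called at 1.16 without control replicate 3 and at 1.02 without Ptch1-ablated replicate 2, and over the alternatives its adjusted p reached 0.18. Cldn5, the tight junction claudin of endothelium, gave 0.68 (SE 0.26, adjusted p = 0.16), with control replicate 2 at 33.0 CPM just above the lowest Ptch1-ablated library at 32.2 CPM. Icam2, an adhesion receptor for leukocyte integrins, was at 11.7, 4.05 and 3.15 CPM in controls and at 4.43, 9.18 and 10.8 CPM after ablation. Its groups overlapped throughout (log2 0.37, SE 0.56, adjusted p = 0.79).

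Of the 10 receptors and signalling genes, 5 were called higher, against 3.36% of all genes, and 1 more passed the adjusted p below 2-fold. Tie1, the orphan receptor that partners Tek, was at 6.52, 20.5 and 16.1 CPM in controls and at 67.2, 53.0 and 64.2 CPM after ablation. Every Ptch1-ablated library was well above every control, control replicate 1 lay lowest, and Tie1 rose 4.28-fold (log2 2.10, SE 0.35, adjusted p = 0.0024). Tek itself, the angiopoietin receptor, was at 31.8, 12 and 15.4 CPM in controls and at 44.2, 52.5 and 37.1 CPM after ablation. Its groups did not overlap and its log2 fold change was 1.17 (SE 0.34), but the adjusted p of 0.053 missed the threshold. Control replicate 1 was high for Tek, and without it the value was 1.70 with an adjusted p of 0.0023. Without both libraries that lay apart Tek was called at 1.56 (adjusted p = 0.0064).

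Within a library, the ratio of Tie1 to Tek in TPM was 0.251, 2.09 and 1.28 in controls and 1.87, 1.23 and 2.13 after ablation, so the groups overlapped. Ptprb, the endothelial phosphatase that restrains Tek, was at 24.7, 16.8 and 34.5 CPM in controls and at 60.9, 57.3 and 64.7 CPM after ablation. The ablated libraries sat close together above the spread of the controls, a 2.40-fold rise (log2 1.27, SE 0.26, adjusted p = 0.0087). The ratio of Ptprb to Tek overlapped between groups as well, at 0.296 to 1.14 in controls and 0.527 to 0.869 after ablation.

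Robo4, the endothelial member of the Roundabout receptors, rose from 25.5, 33.8 and 32.4 CPM in controls to 71.8, 60.9 and 68.6 CPM (2.2-fold, log2 1.13, SE 0.20, adjusted p = 0.0033). Ecscr, a surface protein of endothelial cells that acts in chemotaxis, rose from 10.5, 12.7 and 17.8 CPM to 40.5, 37.8 and 37.6 CPM (2.83-fold, log2 1.5, SE 0.26, adjusted p = 0.0031). Nos3, the endothelial nitric oxide synthase, rose from 3.81, 7.36 and 10.7 CPM to 31.9, 16.0 and 32.7 CPM (3.69-fold, log2 1.88, SE 0.41, adjusted p = 0.014). None of these 3 genes overlapped between groups, with Ptch1-ablated replicate 2 the lowest of its group for Nos3. The Nos3 call was lost when control replicate 2, Ptch1-ablated replicate 1 or Ptch1-ablated replicate 3 was left out, at adjusted p values of 0.053, 0.064 and 0.076. Exons of Nos3 overlap those of Atg9b on the opposite strand and exons of Ecscr those of 1700066B19Rik. The strand setting of the counting is not given in the sources used here, so the gene of origin is uncertain for reads from the shared bases only. Counts of Ecscr were whole in each library, while those of Nos3 were not in all (82.94 in control replicate 1).

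S1pr1, the receptor through which sphingosine 1-phosphate steadies the endothelial barrier, was at 21.5, 27.9 and 17.5 CPM in controls and at 57.0, 32.7 and 42.4 CPM after ablation. The groups did not overlap, and its log2 fold change of 0.98 (SE 0.27, adjusted p = 0.043) fell just short of 2-fold. It was called at 1.17 without control replicate 2, at 1.16 without Ptch1-ablated replicate 2 and at 1.13 without both libraries that lay apart, and over the alternatives its adjusted p reached 0.19. Cd93 and Clec14a, related C-type lectin-like receptors of endothelium, gave log2 fold changes of 0.72 (SE 0.27, adjusted p = 0.14) and 0.31 (SE 0.20, adjusted p = 0.43). For both, all Ptch1-ablated libraries still lay above all controls, by a narrow margin for Clec14a, at 35.5 to 45.2 CPM in controls and 46.6 to 57.8 CPM after ablation. Adgrl4, an adhesion G protein-coupled receptor of endothelial sprouts, gave 0.66 (SE 0.32, adjusted p = 0.27), with control replicate 3 at 39.5 CPM inside the Ptch1-ablated range of 31.9 to 48.8 CPM. Without that control library, Adgrl4 was called at 1.12 (adjusted p = 0.035).

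Among secreted and surface proteins, 4 of 6 were called higher, against 3.36% of all genes. Vwf, the von Willebrand factor stored by endothelial cells, was at 87.6, 82.8 and 71.0 CPM in controls and at 322, 268 and 280 CPM after ablation. Replicates lay close together on both sides of a wide gap, and Vwf rose 3.60-fold (log2 1.85, SE 0.15, adjusted p = 1.0e-05). The ratio of Vwf to Pecam1 in TPM was 0.571, 0.577 and 0.295 in controls and 1.04, 0.987 and 0.670 after ablation, without overlap. Vwf is also made by megakaryocytes, whose 6 markers summed to 28.8 to 48.6 TPM in controls and 21.7 to 46.8 TPM after ablation. This sum was mostly Pf4 (24.8 to 40.2 TPM in controls and 16.5 to 32.9 TPM after ablation), so it says little of the other markers. Itga2b, another of them, had a log2 fold change of 1.10 with overlapping groups (SE 0.60, adjusted p = 0.35). Of the 4 megakaryocyte markers tested, 2 were fitted higher and 2 lower, and 0 were called.

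Mmrn2, an extracellular matrix protein of vessels that binds Clec14a and Cd93, was at 46.7, 43.7 and 37.5 CPM in controls and at 110, 84.2 and 97.8 CPM after ablation. It rose 2.28-fold without overlap (log2 1.19, SE 0.18, adjusted p = 0.0013), and its TPM ratio to Clec14a was 1.53, 1.12 and 1.0 in controls and 2.21, 2.10 and 2.32 after ablation. Emcn, the sialoglycoprotein endomucin of capillaries and veins, was at 21.0, 18.9 and 18.5 CPM in controls and at 39.7, 44.6 and 44.1 CPM after ablation. All 3 ablated libraries were far above the tight control group, a 2.2-fold rise (log2 1.14, SE 0.21, adjusted p = 0.0050).

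Plvap, the diaphragm protein of fenestrated vessels, was at 76.7, 72.1 and 66.8 CPM in controls and at 227, 110 and 108 CPM after ablation. Its groups did not overlap, but Ptch1-ablated replicate 1 stood far above the other two. Its 2.07-fold rise (log2 1.05, SE 0.26, adjusted p = 0.027) fell to 0.61 on the log2 scale without that library (adjusted p = 0.084). The call was also lost without control replicate 1, 2 or 3, at adjusted p values of 0.053, 0.091 and 0.084. Egfl7, a matrix-bound factor secreted by endothelium, was at 32.3, 32.2 and 46.5 CPM in controls and at 49.8, 66.3 and 73.5 CPM after ablation. The groups did not overlap, though the log2 fold change of 0.77 (SE 0.23) missed the threshold at an adjusted p of 0.058. Its exons overlap those of Agpat2 on the opposite strand, with the same limit for the shared bases, though its counts were whole in each library. Mmrn1, a multimerin of platelets and of lymphatic endothelium, held only 8 to 110 counts, and its value of 0.46 (SE 0.89, adjusted p = 0.85) changed sign with the libraries used.

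Endothelial enhancers often hold a composite site for forkhead and ETS factors, and ETS sites are common in endothelial promoters. Because many of these genes were higher together, their promoters (250 bases before to 50 after each RefSeq start, assembly GRCm38.p6) were searched on both strands. A promoter was listed for 17 of the 34 genes, 22 promoters in all. The forkhead-ETS letters AACAGGAA stood in 2 of the 22, where 2.65% of all 32851 promoters held them. The ETS letters CCGGAAGT stood in 0 of 22 (3.89% of all promoters) and the Gli letters GACCACCCA, the site of the Hedgehog transcription factors, in 0 of 22 (0.253% of all promoters). The motifs do not contain each other, and a match or its absence describes the letters in this window. Both promoters with the forkhead-ETS letters are shown 5′ to 3′ along the gene, with the match in capitals. For Emcn, called higher, it begins 173 bases before the start and reads on the opposite strand, and for Egfl7, which missed the threshold, it begins 92 bases before the start on the same strand. The coordinates are those of RefSeq, since the submitters' notes name build mm9 for the data.
Emcn (chr3:137340828-137341127, + strand): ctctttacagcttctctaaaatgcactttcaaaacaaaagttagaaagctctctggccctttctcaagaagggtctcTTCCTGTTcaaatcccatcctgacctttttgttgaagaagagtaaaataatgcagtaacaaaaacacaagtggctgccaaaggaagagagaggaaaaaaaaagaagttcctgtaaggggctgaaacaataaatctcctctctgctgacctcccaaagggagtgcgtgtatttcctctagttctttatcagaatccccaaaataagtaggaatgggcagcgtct
Egfl7 (chr2:26580833-26581132, + strand): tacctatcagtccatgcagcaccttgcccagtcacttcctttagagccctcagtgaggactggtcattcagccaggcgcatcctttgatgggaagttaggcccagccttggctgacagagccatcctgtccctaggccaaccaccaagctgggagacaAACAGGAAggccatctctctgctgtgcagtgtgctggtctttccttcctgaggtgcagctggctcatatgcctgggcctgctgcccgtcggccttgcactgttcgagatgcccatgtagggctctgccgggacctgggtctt

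The 3 endothelial transcription factors split. Sox18, a SoxF factor of blood and lymphatic endothelium, was at 12.6, 16.9 and 11.7 CPM in controls and at 131, 93.0 and 82.6 CPM after ablation. The gap between groups was the widest of the 34 genes by fold, and Sox18 rose 7.43-fold (log2 2.89, SE 0.24, adjusted p = 1.2e-05). Sox17, a SoxF factor of arterial endothelium, was at 0.551, 2.10 and 2.54 CPM in controls and at 6.86, 4.46 and 3.90 CPM after ablation. Its groups did not overlap, but with 12 to 58 counts in controls its value of 1.55 (SE 0.74) had an adjusted p of 0.27.

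Erg, the ETS factor that maintains endothelial identity, was not called. It was at 134.2, 148.0 and 138.6 CPM in controls and at 127.3, 134.1 and 117.3 CPM after ablation, so that all Ptch1-ablated libraries lay below all controls, by as little as the step from 134.2 to 134.1 CPM. Its log2 fold change was -0.15 (SE 0.14, adjusted p = 0.62) and turned to 0.017 when libraries were scaled by their totals only. The TPM ratio of Sox18 to Erg was 0.206, 0.251 and 0.186 in controls and 2.25, 1.52 and 1.54 after ablation. Erg was thus above Sox18 in every control and below it in every Ptch1-ablated library. In controls, Erg was also higher in TPM than Cdh5, Tie1 or Pecam1, at 91.9 against 5.62, 7.88 and 41.8 TPM.

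None of the lymphatic genes was called. Pdpn, the podoplanin of lymphatic endothelium that many stromal and epithelial cells also carry, was at 384, 386 and 292 CPM in controls and at 356, 333 and 362 CPM after ablation. These groups overlapped (log2 -0.01, SE 0.14, adjusted p = 0.98), whereas in TPM the 3 Ptch1-ablated libraries (499 to 507) lay above the controls (371 to 474). Lyve1, the hyaluronan receptor of lymphatic endothelium and some macrophages, had 55, 40 and 111 counts in controls and 8, 0 and 46 after ablation. Its groups did not overlap in CPM, but at these counts the log2 fold change of -2.10 carried an SE of 1.28 and an adjusted p of 0.40. Prox1, the transcription factor that sets lymphatic identity, had 52, 6 and 0 counts in controls and 36, 34 and 75 after ablation, with overlapping groups (1.14, SE 1.36, adjusted p = 0.72). For Lyve1 and Prox1 the libraries of 1 group differed widely among themselves, and no difference between groups passed the test.

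The angiopoietins are made by cells around vessels and by the endothelium. Angpt1, the agonist of Tek released by mural and stromal cells, was at 6.15, 15.8 and 20.4 CPM in controls and at 38.7, 37.2 and 61.1 CPM after ablation. The groups did not overlap and Angpt1 rose 3.24-fold (log2 1.69, SE 0.39, adjusted p = 0.017). Without control replicate 2 or Ptch1-ablated replicate 3 its adjusted p was 0.052 or 0.098. Angpt2, the context-dependent antagonist released by endothelium, was at 22.6, 8.0 and 11.0 CPM in controls and at 22.2, 26.8 and 18.9 CPM after ablation. Control replicate 1 fell inside the Ptch1-ablated range, and the value of 0.70 (SE 0.37) had an adjusted p of 0.32. Without that library Angpt2 was called at 1.25 (adjusted p = 0.037). The ratio of Angpt2 to Angpt1 in TPM was 4.51 in control replicate 1 and between 0.374 and 0.885 in the other 5 libraries, so it did not separate the groups.

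Of the 5 pericyte genes, Mcam and Kcnj8 were called higher and Rgs5 passed the adjusted p below 2-fold. Rgs5, a regulator of G protein signalling that is abundant in pericytes, was at 238, 239 and 220 CPM in controls and at 392, 429 and 432 CPM after ablation. Both groups were tight and did not overlap (1.80-fold, log2 0.85, SE 0.12, adjusted p = 0.00092). Kcnj8, the pore of the vascular KATP potassium channel, was at 22.0, 13.2 and 7.57 CPM in controls and at 54.4, 26.5 and 43.4 CPM after ablation. Its groups did not overlap and it rose 2.90-fold (log2 1.54, SE 0.38, adjusted p = 0.026). Without control replicate 2 or 3, or Ptch1-ablated replicate 1 or 3, its adjusted p was 0.098, 0.067, 0.12 or 0.094.

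Abcc9, the sulfonylurea receptor subunit that assembles with Kcnj8, gave 0.46 (SE 0.29, adjusted p = 0.43) with overlapping groups. The TPM ratio of Kcnj8 to Abcc9 was 3.36, 2.82 and 1.87 in controls and 9.77, 3.16 and 6.21 after ablation, with Ptch1-ablated replicate 2 inside the control range. Mcam, the adhesion molecule CD146 of pericytes and endothelium, was at 10.0, 13.5 and 28.3 CPM in controls and at 53.9, 32.2 and 45.6 CPM after ablation. The groups did not overlap and Mcam rose 2.54-fold (log2 1.34, SE 0.36, adjusted p = 0.041), a call that was lost, at adjusted p values of 0.054 to 0.15, when any library other than control replicate 3 was left out, and at 0.056 without both libraries that lay apart. Cspg4, the NG2 proteoglycan of pericytes, was at 28.8, 40.0 and 25.2 CPM in controls and at 44.4, 49.7 and 25.2 CPM after ablation, with Ptch1-ablated replicate 3 next to the lowest control and below the other controls (0.35, SE 0.29, adjusted p = 0.56).

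Further genes of the same cell types were counted in the same way. Of 40 other endothelial genes, 12 were called higher and 0 lower, where 3.36% and 2.13% of all genes were. The median over the 40 was 0.91 on the log2 scale. By adjusted p alone 15 were higher, against 4.68% of all genes, and 2 were lower. Without 1 library 9 to 12 were called, the fewest without control replicate 3. The smallest adjusted p values were those of Selp, Slco2a1, Aplnr, Podxl, Sele and Ackr1. Selp and Sele, the selectins that activated and venular endothelium uses to catch leukocytes, rose 6.83-fold (adjusted p = 4.1e-06) and 4.50-fold (adjusted p = 0.0029). Aplnr, the apelin receptor, was at 1, 62 and 51 counts in controls and at 1430, 1170 and 1162 counts after ablation, and Slco2a1, a prostaglandin transporter of endothelium, rose 9.67-fold (adjusted p = 4.9e-05). Podxl, a sialomucin of the luminal surface, rose 2.55-fold (adjusted p = 0.0028), and Ackr1, the chemokine receptor of venules, 3.34-fold (adjusted p = 0.0043). The 2 lower genes were Vcam1, which binds leukocyte integrins, and Calcrl, a receptor of adrenomedullin, both named after their values were seen. Vcam1 was at 534, 609 and 629 CPM in controls and at 363, 356 and 400 CPM after ablation (log2 -0.66, adjusted p = 0.0051), and Calcrl at 193, 227 and 221 CPM and at 109, 148 and 133 CPM (log2 -0.71, adjusted p = 0.014), without overlap for either gene. Kdr, the main VEGF receptor of endothelium, also named after its values were seen, was not called, at 464, 557 and 638 CPM in controls and 402, 428 and 431 CPM after ablation (log2 -0.40, SE 0.14, adjusted p = 0.11).

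Of 12 other lymphatic genes 11 were tested, with a median of 0.80. Among them 4 were called higher and 0 lower, where 3.36% and 2.13% of all genes were. Of the 11, 7 were fitted higher and 4 lower. The 4 called were Thy1, Fgl2, Clca3a1 and Foxc2, and Thy1 and Fgl2 are also used by fibroblasts and immune cells. The paper counts Thy1 (Cd90) among its mesenchymal stem cell markers. Thy1 went from 1.09 to 1.52 CPM in controls to 41.1 to 42.9 CPM after ablation (30.9-fold, adjusted p = 8.1e-07), Fgl2 rose 5.09-fold (adjusted p = 6.9e-05), and Clca3a1 was at 23.6 to 42.8 counts in controls and 157 to 302 after ablation. Foxc2, a factor of lymphatic valves, had 0 counts in all controls and 20 to 55 after ablation, at least 10.7-fold higher against 3 counts per library (adjusted p = 0.022). It passed the low-count filter only through the Ptch1-ablated libraries, which fixed its direction. Of 24 other mural cell genes, with a median of 0.83, 4 were called higher, against 3.36% of all genes, and 0 lower. These were the contractile genes Acta2 (2.64-fold, adjusted p = 0.00015) and Tagln (2.89-fold, adjusted p = 0.00079), the Notch target Heyl (7.2-fold, adjusted p = 0.00010) and the transcription factor Ebf1 (2.2-fold, adjusted p = 0.036). Activated fibroblasts also use Acta2 and Tagln. Foxc2 was called in 1 of 7 fits that left libraries out (without control replicate 1) and Ebf1 in 1 (without control replicate 2), at adjusted p values of up to 0.093 and 0.14, and Clca3a1 in 6 of 7, lost without Ptch1-ablated replicate 3 (0.064).

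Lists of genes related to these receptors differed in how many genes were called. Of 9 tested angiopoietin, angiopoietin-like and Tie pathway genes 1 was called higher and 1 lower, where 3.36% and 2.13% of all genes were. Angpt4, the further angiopoietin, had 0 counts in all controls and 17, 78 and 26 after ablation, at least 11.9-fold higher against 3 counts per library (adjusted p = 0.023). Angpt4 passed the low-count filter only through the Ptch1-ablated libraries, which fixed its direction. Angptl1, an angiopoietin-like protein, was at 316, 290 and 384 CPM in controls and at 100, 98.8 and 111 CPM after ablation (log2 -1.68, SE 0.15, adjusted p = 2.2e-05). Of 8 tested partners in sphingosine 1-phosphate signalling only the receptor S1pr3 was called, with 0, 66 and 116 counts in controls and 785, 529 and 788 after ablation. Of 7 tested genes listed as ligands or relatives of Robo4, Clec14a, Cd93 and Pdpn, 3 were called higher. These were Slit2 (2.21-fold, adjusted p = 0.034), the Cd93 ligand Igfbp7 (4.13-fold, adjusted p = 0.0012) and Cd248 (5.32-fold, adjusted p = 8.9e-06). Cd248 is a relative of Cd93 on pericytes and fibroblasts and not a ligand of these receptors. In the fits that left libraries out, Angpt4 and Slit2 were called in 1 of 7 (each without control replicate 1) and S1pr3 in 3 of 7 (lost without control replicate 2 or any Ptch1-ablated replicate), at adjusted p values of up to 0.12, 0.11 and 0.11. The other KATP subunits could not be compared, since Abcc8 had counts in 1 library only.

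**Figure D4:**
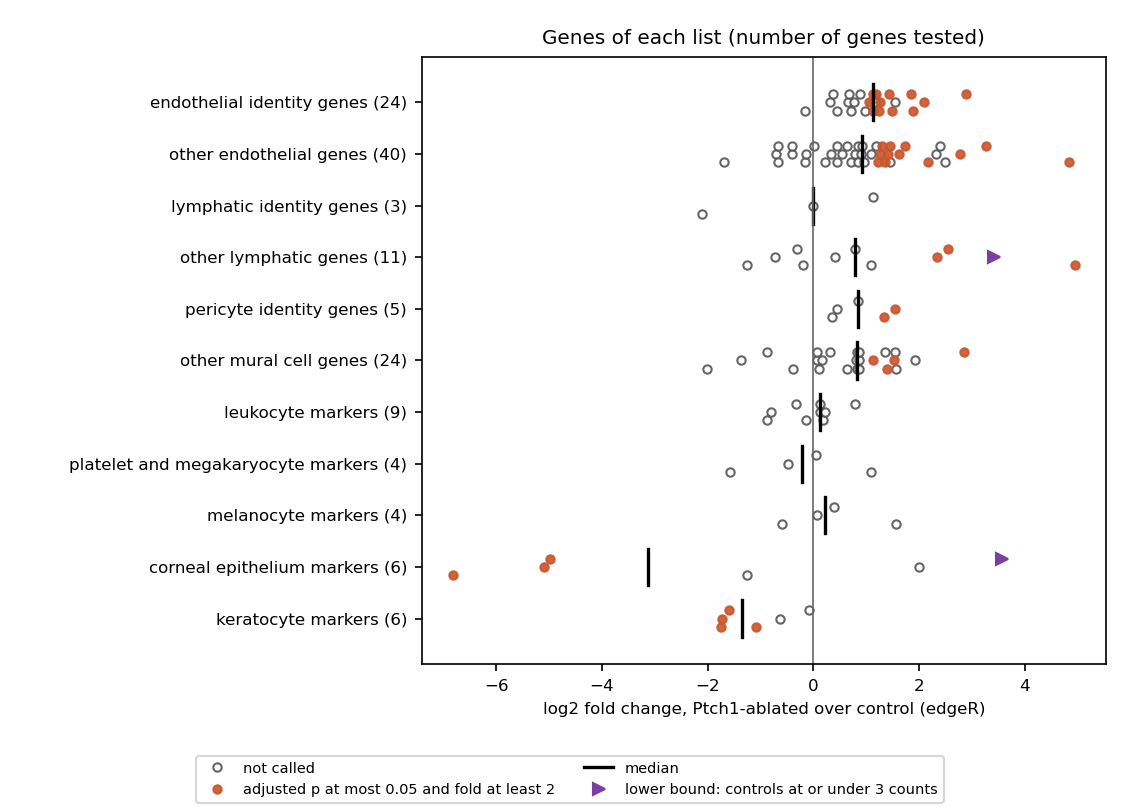
Log2 fold change (x axis, edgeR, Ptch1-ablated over control) of every tested gene of the lists drawn. Filled points are genes called, black bars the list median and triangles the lower bound for genes whose controls all had at most 3 counts. Among the lists not drawn are the corneal endothelium markers, the erythroid markers and the lists of genes related to the receptors. The endothelial identity genes have their median at 1.14 and the keratocyte markers at -1.34, while the leukocyte markers lie around 0.12.

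Markers of other cells that a corneal sort could hold were read in the same libraries. Of 9 tested leukocyte markers 0 were called by edgeR, with 1 past the adjusted p below 2-fold, and their summed level was 545 to 654 TPM in controls and 610 to 703 TPM after ablation. Melanocyte markers summed to 7.17 to 12.8 TPM in controls and 9.09 to 9.95 TPM after ablation (0 of 4 called). Of 5 tested markers of corneal endothelium, where Prrx1-CreERT also recombines, 4 were fitted higher. For 3 of them all Ptch1-ablated libraries lay above all controls, where 14.1% of all genes did so. The median over the 5 was 0.99 on the log2 scale. Among all genes tested, 3.36% were called higher and 2.13% lower. Col8a1 was called higher (4.97-fold, adjusted p = 9.8e-05), the junction protein gene Tjp1 passed the adjusted p below 2-fold (1.99-fold, adjusted p = 0.0094), and the transporter gene Slc4a11 missed it (log2 2.12, SE 0.61, adjusted p = 0.054). Their summed level, 344 to 402 TPM in controls and 307 to 487 TPM after ablation, was mostly Col8a2 (312 to 367 and 215 to 399 TPM, log2 -0.38, adjusted p = 0.29). Tjp1, Slc4a11 and Col8a2 were named after their values were seen. Corneal epithelium markers summed to 50.8 to 89.5 TPM in controls and 3.78 to 9.16 TPM after ablation, with 3 of 6 called lower and Krt12, which had 0 counts in controls, called higher. Krt12 passed the low-count filter only through the Ptch1-ablated libraries, which fixed its direction. In the 7 fits that left libraries out, Krt12 was called in 2 and Krt5 in 3, at adjusted p values of up to 0.085 and 0.11, both lost without control replicate 2 or 3 or Ptch1-ablated replicate 2 or 3, and Krt12 also without Ptch1-ablated replicate 1. Of the keratocyte markers 4 of 6 were called lower and 0 higher, and the median over the 6 was -1.34 on the log2 scale. Erythroid markers summed to 0.11 to 5.07 TPM in controls and 9.69 to 25.5 TPM after ablation, with 0 of 2 tested called at log2 fold changes of 2.34 (adjusted p = 0.39) for Hba-a1 and an adjusted p of 0.055 for Hbb-bs. The part of these differences in the values of the vascular genes was not tested.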

How the data were processed

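RNA was measured in FACS-sorted corneal keratocytes, 3 control and 3 Ptch1-ablated libraries, grouped and numbered by the sample titles. The submitters' processing notes name Bowtie2 2.2.5, RSEM 1.2.12 and build mm9, which the authors used to align reads and estimate gene abundance. The annotation release and strandedness are not given in the sources used here, and the labels name a TruSeq kit where the paper's methods describe ribosomal RNA depletion and a BGISEQ platform. The deposited table holds expected counts per gene, not normalized, of which 18.6% were not whole, because RSEM splits reads that fit several genes. It also holds TPM values, which the authors scaled for transcript length and to the same total in each library. The deposited FPKM values and the authors' group averages were not used.

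Expected counts were rounded, filtered by edgeR's filterByExpr (13888 of 17606 genes), scaled by TMM and tested with edgeR's quasi-likelihood test (edgeR 4.0.16, R 4.3.3, two-sided, group as the single term). The p-values of all 13888 genes were adjusted together by Benjamini-Hochberg. Calls used the thresholds in the study's methods, which differ from those stated with its keratocyte result, 2-fold or more with an adjusted p no larger than 0.05. The SE is the absolute log2 fold change over the square root of F. All 34 genes passed the filter, 3 of them (Mmrn1, Lyve1 and Prox1) with 10 counts or more in all libraries of only 1 group. In the other lists, Foxc2, Angpt4, Krt12 and Hbb-bs had 0 counts in all controls. These passed only through the Ptch1-ablated libraries, so the filter fixed their direction. With 3 against 3 libraries the smallest two-sided exact permutation p is 0.1, so no permutation test was used. Exon overlaps were read from GENCODE by symbol, and promoters from RefSeq. The alternatives were DESeq2 (1.42.0), RLE scaling, library totals only, no filter, a mean of at least 50 counts, limma (3.58.1) on log2(TPM + 1) and log2(TPM + 0.1), a replicate block, an adjusted p with no fold minimum, and leaving out each library. Leaving out both libraries that lay apart was chosen after seeing the data. The fits were tested on simulated data. The 34 genes and the other lists were chosen with earlier results of these data known. The rule for names covered all 34 genes and, from each other list, up to 6 called genes of smallest adjusted p, or the 2 of highest mean TPM where none was called. Kdr, Vcam1, Calcrl, Tjp1, Slc4a11, Col8a2 and Abcc8 were chosen after their values were seen.
The list of Schwann cell and nerve markers is not reported here.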

Additional observations from a re-analysis of the deposited data

How the results depend on the processing

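Over all alternatives the number of the 34 genes called higher stayed between 10 and 19 (main 15, 10 to 16 without 1 library, 18 by adjusted p alone) and the number called lower at 0, with at most 1 gene lower at an unadjusted p under 0.05. The median log2 fold change of 1.09 moved to 1.24 with library totals only and to 1.26 by limma on log2(TPM + 0.1), scalings under which the median of all genes moved to 0.17 and 0.22, and ran from 0.97 to 1.14 without 1 library. The 4 other mural cell genes called became 8 with library totals only and 9 by limma with either pseudocount, and 3 to 5 without 1 library. Values of 3 genes changed sign. Erg went from -0.15 to 0.017 with library totals only and to 0.064 by limma with either pseudocount. Pdpn went from -0.01 to 0.15 with library totals only, to 0.21 by limma with either pseudocount. It ran from -0.13 to 0.054 without 1 library (above 0 in 3 of 6 cases) and was 0.084 without both libraries that lay apart. Mmrn1 went from 0.46 to -0.022 and -0.053 without control replicate 2 or Ptch1-ablated replicate 3, and was 1.10 without both libraries that lay apart. None of these values passed the test, and the cause was not tested. Tek, at an adjusted p of 0.053, passed it at 0.0087 with DESeq2 and at 0.022 to 0.039 with library totals only, no filter, a mean of at least 50 counts or limma.

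Same-numbered libraries did not deviate together (correlations of -0.046, -0.049 and 0.039), so no pairing by number was seen. With 3 libraries a group this check cannot exclude one. With the replicate number as a block, 15 of the 34 genes were called higher and 0 lower, with 10 other endothelial and 3 other mural genes called and a median of 1.06. Under the block Tek was called at 1.28 (adjusted p = 0.050) and Plvap dropped below 2-fold at 0.96. Prox1, Mmrn1, Lyve1 and Sox17, with 161 counts or fewer in each library, had the largest SE of the 34 genes.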
